A study of Mus musculus with 56 samples.

Results

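The 10 genes described here mark tissue macrophages in the mouse, and they were taken from the expression matrix by matching Ensembl gene identifiers to symbols. All 10 were found among 53431 features, and all 10 passed the filter on low values that left 14700 features for testing. They fall into 3 kinds. Cd68, Adgre1 and Csf1r are carried by macrophages in general, Mrc1, Folr2, Vsig4, Lyve1 and Cd163 are associated with long-lived resident macrophages, and Trem2 and Ly6c2 were assigned to cells recruited from blood monocytes, a grouping that their variation between mice did not follow in the larger of 2 sets of mice described below. The genes were measured by RNA sequencing of front paws from 56 male DBA/1 mice, 1 library per mouse, in a study of collagen-induced arthritis (CIA), in which immunisation with type II collagen leads to autoimmune joint inflammation. Mice of 4 groups were immunised with chicken collagen on days 1 and 21 and were given antibody intraperitoneally from day 21, 2 times a week for 5 weeks, with no injection in the weeks before RNA was prepared on day 91. The isotype group (13 mice) received a control IgG1 at 30 mg/kg, the anti-TNF group (13 mice) clone XT3.11 at 30 mg/kg, the anti-IL-6 group (13 mice) clone MP5-20F3 at 10 mg/kg, and the combination group (13 mice) both blocking antibodies at these doses. The no CIA group (4 mice) was neither immunised nor treated. All groups with CIA share the immunisation, so each antibody was tested against the isotype group, and the effect of the disease itself rests on 4 control mice.

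Macrophages of the joint lining and of the skin, muscle and marrow around it derive partly from precursors laid down before birth and partly from monocytes that enter from blood. Growth and survival of both depend on the receptor encoded by Csf1r, and their identity on the transcription factor PU.1, encoded by Spi1. In inflamed joints, monocytes with high surface Ly6C enter the synovium and can mature into macrophages, beside a resident population that carries scavenger receptors and the complement receptor encoded by Vsig4. A whole paw holds all of these cells together with muscle, skin, vessels and bone, so that fewer cells of a type and less RNA per cell cannot be told apart in these libraries.

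Promoters are shown for 4 members, since the first 3 hold the core motif bound by PU.1 and the fourth does not, and together they cover the 3 kinds. Each is the 250 bases before the RefSeq start, 5′ to 3′ on the gene's strand, build GRCm38.p6, with the core GAGGAA or its reverse complement TTCCTC in capitals: Cd68 at chr11:69666171-69666420 (minus strand), Trem2 at chr17:48346151-48346400 (plus), Vsig4 at chrX:96293439-96293688 (minus) and Cd163 at chr6:124304401-124304650 (plus).
Cd68: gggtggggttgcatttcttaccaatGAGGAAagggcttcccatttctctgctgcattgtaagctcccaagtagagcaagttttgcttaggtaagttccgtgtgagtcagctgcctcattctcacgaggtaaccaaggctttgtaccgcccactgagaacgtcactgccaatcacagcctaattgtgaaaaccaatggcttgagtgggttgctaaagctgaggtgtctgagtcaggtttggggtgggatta
Trem2: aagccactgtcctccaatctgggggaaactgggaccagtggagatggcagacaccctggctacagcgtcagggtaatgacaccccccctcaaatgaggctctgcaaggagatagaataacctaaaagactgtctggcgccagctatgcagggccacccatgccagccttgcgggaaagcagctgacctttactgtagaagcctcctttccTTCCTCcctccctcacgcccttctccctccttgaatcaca
Vsig4: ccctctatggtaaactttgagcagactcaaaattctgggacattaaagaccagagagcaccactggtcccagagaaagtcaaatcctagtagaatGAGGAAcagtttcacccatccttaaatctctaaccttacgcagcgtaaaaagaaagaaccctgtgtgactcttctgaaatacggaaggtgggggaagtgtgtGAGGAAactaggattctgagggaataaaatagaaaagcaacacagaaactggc
Cd163: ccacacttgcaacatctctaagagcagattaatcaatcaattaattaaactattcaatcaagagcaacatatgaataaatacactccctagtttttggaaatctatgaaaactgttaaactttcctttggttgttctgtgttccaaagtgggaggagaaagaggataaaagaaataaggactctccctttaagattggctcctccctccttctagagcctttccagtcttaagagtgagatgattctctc
RefSeq promoters were matched for 7 of the 10 members, giving 9 promoters because Folr2 and Ly6c2 have 2 listed starts each. The PU.1 core, searched on both strands, was found in 6 of these 9, against 23.25% of the 32851 mouse promoters of the same length (7639 promoters). The 2 Ly6c2 windows share 216 bases and 1 match, so by gene the core was found for 5 of 7 members, against 25.85% of 27025 genes. The AP-1 site TGACTCA was found in 2 of 9, against 4.46%. The E-box CACGTG (6.02% of promoters), the MAF half-site TGCTGAC (3.81%) and the C/EBP site TTGCGCAA (0.16%) were in none of the 9. The letters are a description of these windows and were not tested.

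All libraries held macrophage RNA. Depth, estimated from the smallest step of the values, was 39.8 to 54.65 M fragments (M for mega). Group medians were 45.05 to 48.45 M. Markers of the tissues expected in a paw were present throughout. The 10 skeletal muscle markers summed to between 1523 and 48450 FPKM (fragments per kilobase of transcript, scaled to library depth). The 10 epidermis markers summed to between 5080 and 29210 FPKM, so the make-up of the paws differed widely between mice. Read in order of the index numbers in the titles, the mouse numbers mostly rise and then start again low, which gives 5 stretches. These are called index runs here. They were inferred from the titles, which name no batch and share the same lane code. The first run held all 4 no CIA libraries and 2 isotype libraries (replicates 4 and 7), and the other 4 held only immunised mice. On 8 marker lists of other cells and tissues, none of which holds a member, the 52 immunised libraries fell into a set of 19 and a set of 33 (2-means clustering on standardised list means, 52.8% of the spread lying between the sets). The smaller set held 5 isotype, 4 anti-TNF, 5 anti-IL-6 and 5 combination mice, the larger 8, 9, 8 and 8, and all 4 no CIA libraries lay nearer to the centre of the smaller set. The sets were formed from the data and are not groups of the study; they are used below to give correlations within each and to describe where Lyve1 values lay.

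The general macrophage genes had higher means in all 4 immunised groups than in mice without CIA, but no difference passed the test over all features. Cd68, a lysosomal membrane glycoprotein of phagocytes, measured 25.2, 26.7, 22.5 and 19.5 FPKM in the 4 no CIA mice. The gene (ENSMUSG00000018774.13) lies at chr11:69664213-69666153 on the minus strand; this and later positions are from GENCODE M21, build GRCm38, and all are of protein-coding genes. In the isotype group Cd68 ran from 23.8 through a median of 41.9 to 111.4 FPKM. It ran in the anti-TNF group from 18.8 through 52.0 to 128.3, in the anti-IL-6 group from 26.2 through 38.1 to 218.3 and in the combination group from 25.6 through 37.2 to 86.2. Of the 52 immunised mice, 46 lay above every no CIA mouse, 5 within their range and 1 below it. The difference in mean log2(FPKM + 1), isotype minus no CIA, was 0.85 ± 0.38 (SE; limma, adjusted p = 0.279).

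Adgre1, which encodes the F4/80 antigen of mouse macrophages, was low without CIA, at 3.33, 3.14, 4.30 and 3.37 FPKM. It lies at chr17:57358691-57483527 (plus strand; ENSMUSG00000004730.15). Its isotype values ran from 3.74 through a median of 6.07 to 15.3 FPKM, those of anti-TNF from 3.24 through 7.35 to 24.7, of anti-IL-6 from 4.16 through 5.37 to 22.3 and of the combination from 4.06 through 6.23 to 9.79. Here 45 of 52 immunised mice lay above all no CIA mice and none below. The log2 difference of the isotype group from no CIA was 0.74 ± 0.30 (adjusted p = 0.266, limma). Csf1r, the receptor for CSF1 and IL-34, stood at 22.8, 27.9, 28.6 and 24.5 FPKM without CIA and ran from 21.0 through 36.1 to 75.2 FPKM in the isotype group. Its identifier is ENSMUSG00000024621.15. Its medians were 41.0, 39.03 and 37.9 FPKM in the anti-TNF, anti-IL-6 and combination groups. Of the immunised mice, 46 of 52 exceeded all 4 no CIA mice, and the isotype difference was 0.46 ± 0.26 (adjusted p = 0.336, limma). The 3 genes thus shared a pattern of higher values in most immunised mice with a long upper tail.

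Markers of other tissues differed between the same groups. For isotype minus no CIA, all 10 skeletal muscle markers had negative differences (median -0.64), as had 9 of 10 epidermis markers (median -0.23), and all 8 blood endothelial markers had positive ones (median 0.58); none passed the test. Muscle markers summed to 9286 to 36580 FPKM without CIA and 2427 to 31260 FPKM in the isotype group, and blood endothelial markers to 239.9 to 299.8 and 265.3 to 456.2 FPKM. With the muscle and epidermis means as covariates, the isotype difference was 0.39 ± 0.20 for Cd68 in place of 0.85, 0.42 ± 0.18 for Adgre1 in place of 0.74 and 0.19 ± 0.16 for Csf1r in place of 0.46. It was 0.31 ± 0.22 for Trem2 in place of 0.70, 0.22 ± 0.21 for Mrc1 in place of 0.36, and -0.70 ± 0.39 for Lyve1 in place of -1.09. Ly6c2 (1.49 ± 0.56, from 1.83) and Vsig4 (-0.63 ± 0.42, from -0.76) moved less, and the small differences of Folr2 and Cd163 became -0.07 ± 0.26 and -0.07 ± 0.31. The part of tissue make-up in the members' values was not tested.

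Trem2 and Ly6c2, the genes assigned to recruited cells, had the same direction. Trem2, a lipid-sensing receptor that signals through the adaptor encoded by Tyrobp, measured 11.2, 15.9, 10.9 and 11.7 FPKM without CIA. The gene lies at chr17:48346401-48354147 (plus strand; ENSMUSG00000023992.14). Its values ran from 10.5 through a median of 23.8 to 39.8 FPKM in the isotype group, from 8.79 through 26.7 to 53.9 in the anti-TNF group, from 13.2 through 21.6 to 67.9 in the anti-IL-6 group and from 13.7 through 17.1 to 42.2 in the combination group. Values above all no CIA mice were found in 40 of 52 immunised mice, and the groups overlapped; the isotype difference was 0.70 ± 0.36 (adjusted p = 0.313, limma).

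Ly6c2, which encodes the Ly6C protein of inflammatory monocytes, had the largest difference of the 10 genes. It lies at chr15:75108158-75111970 (minus strand; ENSMUSG00000022584.14). Without CIA it was low, at 0.170, 1.51, 0.546 and 1.13 FPKM. The isotype group ran from 0.556 through a median of 5.12 to 27.4 FPKM, the anti-TNF group from 1.023 through 5.69 to 59.8, the anti-IL-6 group from 1.82 through 5.54 to 18.7 and the combination group from 1.03 through 4.83 to 16.3. All 13 anti-IL-6 mice and 46 of the 52 immunised mice lay above every no CIA mouse. The log2 difference was 1.83 ± 0.60 for isotype (adjusted p = 0.196, limma) and 2.19 ± 0.60 for anti-TNF (adjusted p = 0.0748). Its neighbour Ly6c1, an antigen of blood vessel endothelium, is a near-identical copy: 387 of 396 coding bases agree (97.7%). The first 150 coding bases from GENCODE M21 transcripts, build GRCm38, are shown with the 6 differing bases in capitals, because reads outside such bases do not tell the 2 genes apart.
Ly6c2: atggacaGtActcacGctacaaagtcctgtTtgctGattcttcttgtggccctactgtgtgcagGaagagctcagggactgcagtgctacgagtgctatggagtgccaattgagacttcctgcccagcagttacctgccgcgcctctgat
Ly6c1: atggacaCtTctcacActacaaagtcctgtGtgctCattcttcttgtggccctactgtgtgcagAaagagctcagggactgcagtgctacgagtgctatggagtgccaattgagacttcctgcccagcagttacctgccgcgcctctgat
Of the 75-base windows of the Ly6c2 coding sequence, 35.4% also occur in Ly6c1, so Ly6c2 values are uncertain by however many fragments the authors' counting shared between the copies. Ly6c1 was far more abundant, at a median of 214.9 FPKM without CIA and 234.4 FPKM in the isotype group, where Ly6c2 stood at 5.12 FPKM.

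The resident-type genes did not move as 1 group. Mrc1, the mannose receptor CD206, was the only 1 of the 5 with a higher mean in every immunised group. Mrc1 lies at chr2:14229392-14332057 (plus strand; ENSMUSG00000026712.3). It measured 7.97, 8.31, 8.48 and 7.69 FPKM without CIA, and from 7.75 through a median of 10.6 to 15.8 FPKM in the isotype group. Medians with anti-TNF, anti-IL-6 and the combination were 10.9, 10.2 and 10.1 FPKM, and 43 of 52 immunised mice lay above all no CIA mice, among them all 13 combination mice. The isotype difference was 0.36 ± 0.23 (adjusted p = 0.395, limma).

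Lyve1, a hyaluronan receptor of perivascular resident macrophages and of lymphatic endothelium, went the other way. Lyve1 lies at chr7:110850607-110863239 (minus strand; ENSMUSG00000030787.4). Its level was 14.3, 18.9, 15.7 and 17.4 FPKM without CIA, against 2.73 to 21.7 FPKM (median 6.13) in the isotype group. The ranges were 3.24 to 20.6 (median 8.20) with anti-TNF, 2.99 to 21.0 (median 5.78) with anti-IL-6 and 3.00 to 25.9 (median 7.20) with the combination. Below every no CIA mouse were 36 of the 52 immunised mice, and above every one were 8. No immunised mouse had a value between 9.64 and 12.1 FPKM: 34 lay at or under the first value and 18 at or over the second. The 18 were the mice of the set of 19 other than isotype replicate 6, and all 33 mice of the larger set lay under the gap; no test was made between the sets. The isotype difference was -1.09 ± 0.48 (adjusted p = 0.273, limma). Lymphatic endothelial markers had the other sign: 5 of the 6 that were tested had positive differences from no CIA in the isotype group (median 0.58, none past the test), and the 8 genes of that list summed to 74.6 to 95.7 FPKM without CIA and 98.5 to 248.4 FPKM in the isotype group.

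Vsig4, the complement receptor CRIg of resident macrophages, measured 6.15, 8.49, 9.51 and 9.52 FPKM without CIA (chrX:96247203-96293438, minus strand; ENSMUSG00000044206.3), and from 1.13 through a median of 4.60 to 13.0 FPKM in the isotype group. Vsig4 ran from 2.03 through 6.13 to 12.7 FPKM with anti-TNF, from 1.64 through 7.73 to 13.0 with anti-IL-6 and from 2.37 through 5.88 to 12.9 with the combination. Of 52 immunised mice, 28 lay below all no CIA mice and 10 above, and the isotype difference was -0.76 ± 0.41 (adjusted p = 0.331, limma). Folr2, a folate receptor of resident macrophages, measured 26.8, 28.3, 25.3 and 22.5 FPKM without CIA. It lies at chr7:101839988-101857194 (minus strand; ENSMUSG00000032725.10). Isotype values ran from 14.4 through a median of 22.9 to 34.5 FPKM, and the medians with anti-TNF, anti-IL-6 and the combination were 25.5, 23.0 and 24.9 FPKM. Immunised mice spread to both sides of the no CIA mice, 19 above and 23 below, and the isotype difference was -0.15 ± 0.26 (adjusted p = 0.765, limma). Cd163, the scavenger receptor for haemoglobin bound to haptoglobin, measured 6.87, 6.67, 6.61 and 5.61 FPKM without CIA and from 3.90 through 5.20 to 9.36 FPKM in the isotype group. It lies at chr6:124304656-124330527 (plus strand; ENSMUSG00000008845.9). Its medians in the anti-TNF, anti-IL-6 and combination groups were 5.77, 5.57 and 5.24 FPKM. Of the immunised mice 19 lay above and 27 below all no CIA mice, and the isotype difference was -0.11 ± 0.30 (adjusted p = 0.856, limma).

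**Figure D1:**
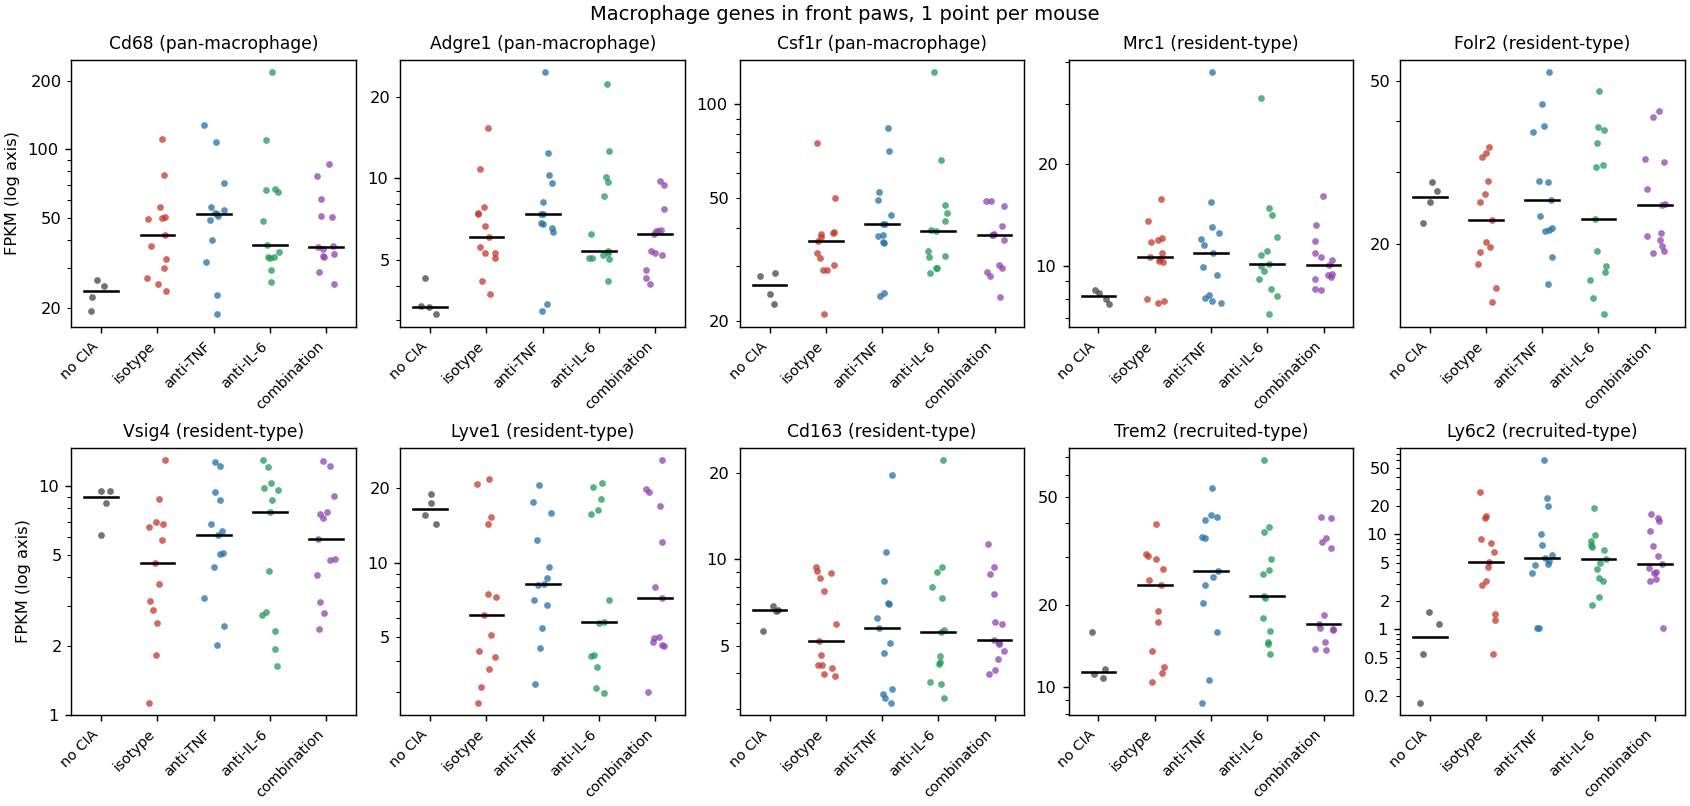
Level of each of the 10 genes in FPKM (vertical axes, logarithmic) in the 5 groups, 1 point per mouse, with a line at the group median. Most immunised mice lie above the 4 no CIA mice for Cd68, Adgre1, Csf1r, Mrc1 and Ly6c2, and 36 of 52 lie below them for Lyve1.

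**Figure D2:**
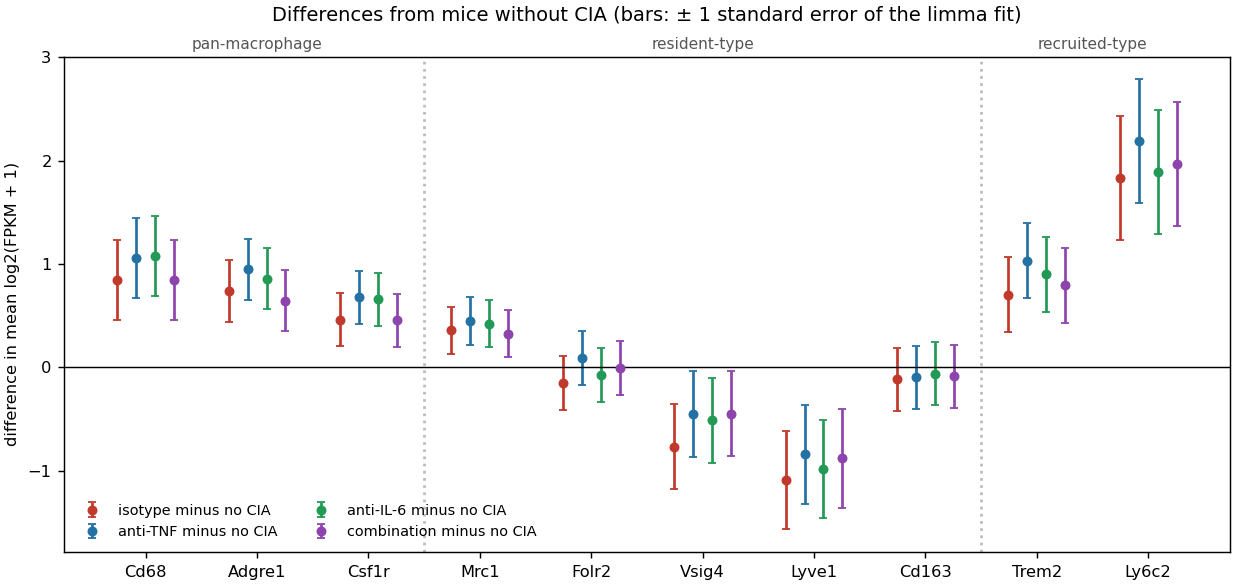
Difference in mean log2(FPKM + 1) of each immunised group from no CIA (vertical axis; points, with bars of 1 standard error either side). Means of the pan-macrophage and recruited-type genes lie above 0 in all 4 groups, from 0.46 to 2.19, and those of Vsig4, Lyve1 and Cd163 below it; no difference passed the test.

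Across the 10 genes, none was called against no CIA at a Benjamini-Hochberg adjusted p under 0.05 over all 14700 features (limma). The background was low as well: 0.156% of features were called for isotype, 0.551% for anti-TNF, 0.558% for anti-IL-6, 0.156% for the combination and 0.633% for the mean of the 4 immunised groups, each minus no CIA. At an unadjusted p under 0.05 the members numbered 4, 5, 6, 4 and 6 of 10 in these comparisons, against 16.7%, 19.1%, 28.1%, 10.5% and 21.0% of all features. For the mean of the 4 groups, the differences were 1.97 ± 0.54 for Ly6c2, 0.96 ± 0.35 for Cd68, 0.86 ± 0.33 for Trem2, 0.80 ± 0.27 for Adgre1 and 0.56 ± 0.23 for Csf1r, with Mrc1 at 0.39 ± 0.21. On the other side of 0 were Lyve1 at -0.95 ± 0.43, Vsig4 at -0.54 ± 0.38, Cd163 at -0.09 ± 0.28 and Folr2 at -0.03 ± 0.24. The smallest adjusted p of the members was 0.0744, for Ly6c2. The median difference of the 10 genes, isotype minus no CIA, was 0.41, against 0.03 over all features. The 4 comparisons share the same 4 control mice, and their values are therefore given side by side and not counted as 4 observations.

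These calls depended on how the index runs were treated. All no CIA libraries lie in the first run, where the only immunised libraries are isotype replicates 4 and 7, with Cd68 at 111.4 and 77.5 FPKM and Lyve1 at 3.72 and 3.16 FPKM. With the run as a covariate, 5 members were called for isotype minus no CIA (Cd68, Adgre1, Csf1r and Ly6c2 higher, Lyve1 lower), beside 18.7% of all features. The fit called 5 for anti-TNF (Cd68, Adgre1, Csf1r, Trem2 and Ly6c2, beside 22.2% of features), 3 for anti-IL-6 (Cd68, Adgre1 and Csf1r, beside 10.9%) and 5 for the mean of the 4 groups (beside 19.6%). In that fit the step from no CIA to CIA rests on those 2 isotype mice. Its differences for isotype minus no CIA were 1.95 for Cd68, 1.62 for Adgre1, 1.22 for Csf1r, 2.86 for Ly6c2 and -1.98 for Lyve1. With a pseudocount of 0.1 in place of 1, Ly6c2 alone among the members was called for anti-TNF (3.12 ± 0.73, adjusted p = 0.0179), anti-IL-6 (2.84 ± 0.73, adjusted p = 0.0393) and the mean of the 4 groups (2.89 ± 0.66, adjusted p = 0.0128), where 0.762%, 0.993% and 0.884% of all features were called.

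Between the antibody groups no difference of a member passed the test. No member was called for anti-TNF minus isotype (0% of all features called), anti-IL-6 minus isotype (0.952%), combination minus isotype (0%), combination minus anti-TNF (0%), combination minus anti-IL-6 (0.102%) or anti-IL-6 minus anti-TNF (0%), and none had an unadjusted p under 0.05 in any of the 6. The differences from isotype ran from 0.02 to 0.36 with anti-TNF and from 0.05 to 0.25 with anti-IL-6 on the log2 scale, positive for all 10 genes in both, and from -0.09 to 0.32 with the combination. In the alternative fits, the sign of anti-TNF minus isotype changed only for Mrc1 (-0.04 to 0.14) and Cd163 (-0.11 to 0.08). For anti-IL-6 minus isotype, only Csf1r, Folr2 and Vsig4 kept 1 sign throughout. For combination minus isotype, only Trem2, Folr2, Vsig4 and Lyve1 did. Of all 60 differences between antibody groups, 37 changed sign in at least 1 alternative fit, among them differences of each of the 10 genes. The 3 comparisons with isotype share the isotype mice. For Ly6c2, whose difference for anti-TNF minus isotype was 0.36, the standard error was 0.41, and for Lyve1 (0.25) it was 0.33, so that these differences lay within their error.

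The spread between mice was wider with CIA than without for each of the 10 genes, though only 4 mice describe the latter. The pooled within-group SD of log2(FPKM + 1) in immunised mice was 0.70 for Cd68, 0.87 for Lyve1, 0.76 for Vsig4 and 1.09 for Ly6c2, against 0.19, 0.17, 0.26 and 0.49 in the no CIA mice. Anti-TNF replicate 4 and anti-IL-6 replicate 13 stood apart at the top: they had the 2 highest values of Mrc1 (37.3 and 31.2 FPKM), Cd163 (19.7 and 22.1 FPKM), Cd68 (128.3 and 218.3 FPKM), Adgre1 and Csf1r. Without them no member was called in any comparison.

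The contrast between the kinds can be read as the mean log2(FPKM + 1) of the 5 resident-type genes less that of the 3 general ones, a description on which no test was made. It was -0.21 ± 0.07 (SD, n = 4) without CIA, -1.24 ± 0.76 (n = 13) in the isotype group, -1.27 ± 0.70 with anti-TNF, -1.32 ± 0.86 with anti-IL-6 and -1.08 ± 0.71 with the combination. Among immunised mice, 44 of 52 lay below all 4 no CIA mice. Both parts of the contrast differed between no CIA and isotype mice. The mean of the general genes was 3.84 ± 0.10 without CIA and 4.52 ± 0.51 in the isotype group. That of the resident-type genes was 3.63 ± 0.08 and 3.28 ± 0.50, and that of Trem2 and Ly6c2 2.27 ± 0.34 and 3.54 ± 0.83. The lower resident-type mean rests on Lyve1 (-1.09) and Vsig4 (-0.76). Folr2 (-0.15) and Cd163 (-0.11) differed little, and Mrc1 (0.36) was higher. Of 23 other resident-type genes, 17 had positive differences in this comparison (median 0.30), so the lower mean does not describe resident-type genes at large. By medians, Csf1r (26.2 FPKM), Folr2 (26.0) and Cd68 (23.9) led without CIA with overlapping values, followed by Lyve1 (16.5), Trem2 (11.4), Vsig4 (9.00), Mrc1 (8.14), Cd163 (6.64), Adgre1 (3.35) and Ly6c2 (0.839). In the isotype group Cd68 (41.9 FPKM) and Csf1r (36.1) led, Trem2 (23.8) and Folr2 (22.9) came next, Mrc1 followed at 10.6, and Lyve1 (6.13), Adgre1 (6.07), Cd163 (5.20), Ly6c2 (5.12) and Vsig4 (4.60) lay within each other's spread.

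Between mice, the general and the resident-type genes varied together within each set of libraries. Correlations were computed on deviations from group means, with p from 100000 permutations of mice within groups (two-sided). They were adjusted over 90 relations (45 pairs in 2 sets), and 1e-05 is the smallest p they can give. Leaving Ly6c2 aside, all 36 pairs of the other 9 genes had a positive r in the set of 19, from 0.25 to 0.91, and 33 passed. Those that did not were pairs of Trem2 with resident-type genes: Mrc1 (r = 0.33, adjusted p = 0.222), Lyve1 (r = 0.40, adjusted p = 0.0705) and Cd163 (r = 0.25, adjusted p = 0.362). In the set of 33 all 36 were positive as well, from 0.04 to 0.97, and 29 passed; the 7 that did not all involve Lyve1. Cd68 and Csf1r had r = 0.877 (p = 9e-05, adjusted p = 0.000368; rho = 0.805, p = 0.0017) in the smaller set and 0.968 (p = 1e-05, adjusted p = 6.92e-05; rho = 0.917, p = 1e-05) in the larger.

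Cd68 and Folr2, a general and a resident-type gene, had r = 0.757 (p = 0.0001, adjusted p = 0.000375; rho = 0.782, p = 0.00106) in the set of 19 and 0.669 (p = 0.00046, adjusted p = 0.00134; rho = 0.476, p = 0.00614) in the set of 33. Without the 2 libraries farthest from the median of Cd68 the values were 0.738 and 0.377 (p = 0.0367); in the larger set these are anti-TNF replicate 4 and anti-IL-6 replicate 13, so much of that r rests on them. Within the smaller set, isotype replicate 6 lay apart from the other 18 mice, with Folr2 at 14.4, Vsig4 at 1.13 and Lyve1 at 2.73 FPKM. A correlation over all 52 mice was the one planned, but it would mix the 2 sets. Only its counts of pairs are given, here and in the closing section. Of 45 pairs, 28 passed over all 52 mice, 23 positive and 5 negative. Without anti-TNF replicate 4 and anti-IL-6 replicate 13, 22 positive and 9 negative pairs passed. No negative pair passed within the sets, which were formed after seeing the data and also divide the mice by Lyve1 level. The positive relations therefore hold within the sets and not for every pair over all immunised mice. Without anti-TNF replicate 4 and anti-IL-6 replicate 13, 25 of the 36 pairs in the larger set passed and 33 remained positive.

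**Figure D3:**
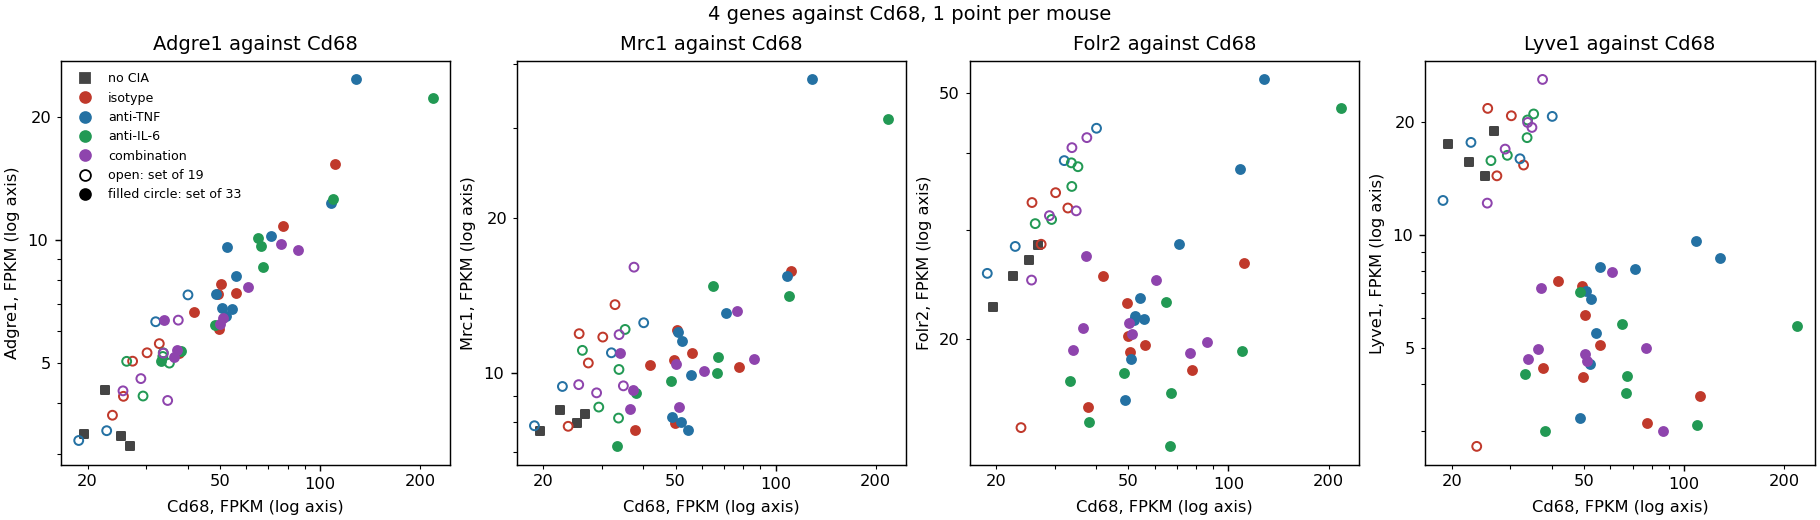
Adgre1, Mrc1, Folr2 and Lyve1 (vertical axes) against Cd68 (horizontal), both in FPKM on logarithmic axes, 1 point per mouse, coloured by group; squares are no CIA mice, open circles the set of 19 and filled circles the set of 33 immunised mice. Adgre1 follows Cd68 along 1 line, whereas for Folr2 and Lyve1 open and filled circles form separate clouds, apart from isotype replicate 6, an open circle at Lyve1 2.73 and Folr2 14.4 FPKM.

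Among the resident-type genes, Folr2 and Cd163 had r = 0.818 (p = 0.00301, adjusted p = 0.00542; rho = 0.718, p = 0.0043) and 0.904 (p = 1e-05, adjusted p = 6.92e-05; rho = 0.749, p = 4e-05) in the sets of 19 and 33, and 0.531 (p = 0.0809) and 0.743 (p = 2e-05) without the 2 farthest mice; in the smaller set the relation thus rests on those mice. Mrc1 and Cd163 had r = 0.83 (p = 0.0001, adjusted p = 0.000375; rho = 0.844, p = 8e-05) and 0.916 (p = 1e-05, adjusted p = 6.92e-05; rho = 0.781, p = 2e-05), and 0.743 and 0.746 without the 2 farthest. Folr2 and Lyve1 had r = 0.898 (p = 8e-05, adjusted p = 0.00036; rho = 0.865, p = 9e-05) and 0.543 (p = 0.00164, adjusted p = 0.00345; rho = 0.526, p = 0.00261), and 0.772 and 0.592 without the 2 farthest. All 3 pairs are of genes assigned to the same kind, but not every such pair passed. In the larger set Lyve1 did not pass with Vsig4 (r = 0.285, adjusted p = 0.159), Mrc1 (r = 0.343, adjusted p = 0.0976) or Cd163 (r = 0.384, adjusted p = 0.0573). It passed with each of them in the smaller set. Pairs across kinds had similar values, such as Adgre1 and Mrc1 (r = 0.908 in the larger set) or Csf1r and Folr2 (r = 0.883 in the smaller). Lyve1 and Cd68 passed in the smaller set (r = 0.493, p = 0.00188, adjusted p = 0.00368; rho = 0.661, p = 0.00168) and not in the larger (r = 0.04, p = 0.814, adjusted p = 0.814; rho = 0.015, p = 0.938), where r ran from 0.28 to 0.84 within the 3 index runs with at least 6 mice. The difference between the sets was not tested. Within the index runs that held at least 6 mice of a set, r of Cd68 and Folr2 in turn was 0.905 in the 1 such run of the smaller set and 0.43 to 0.936 in the 3 of the larger.

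**Figure D4:**
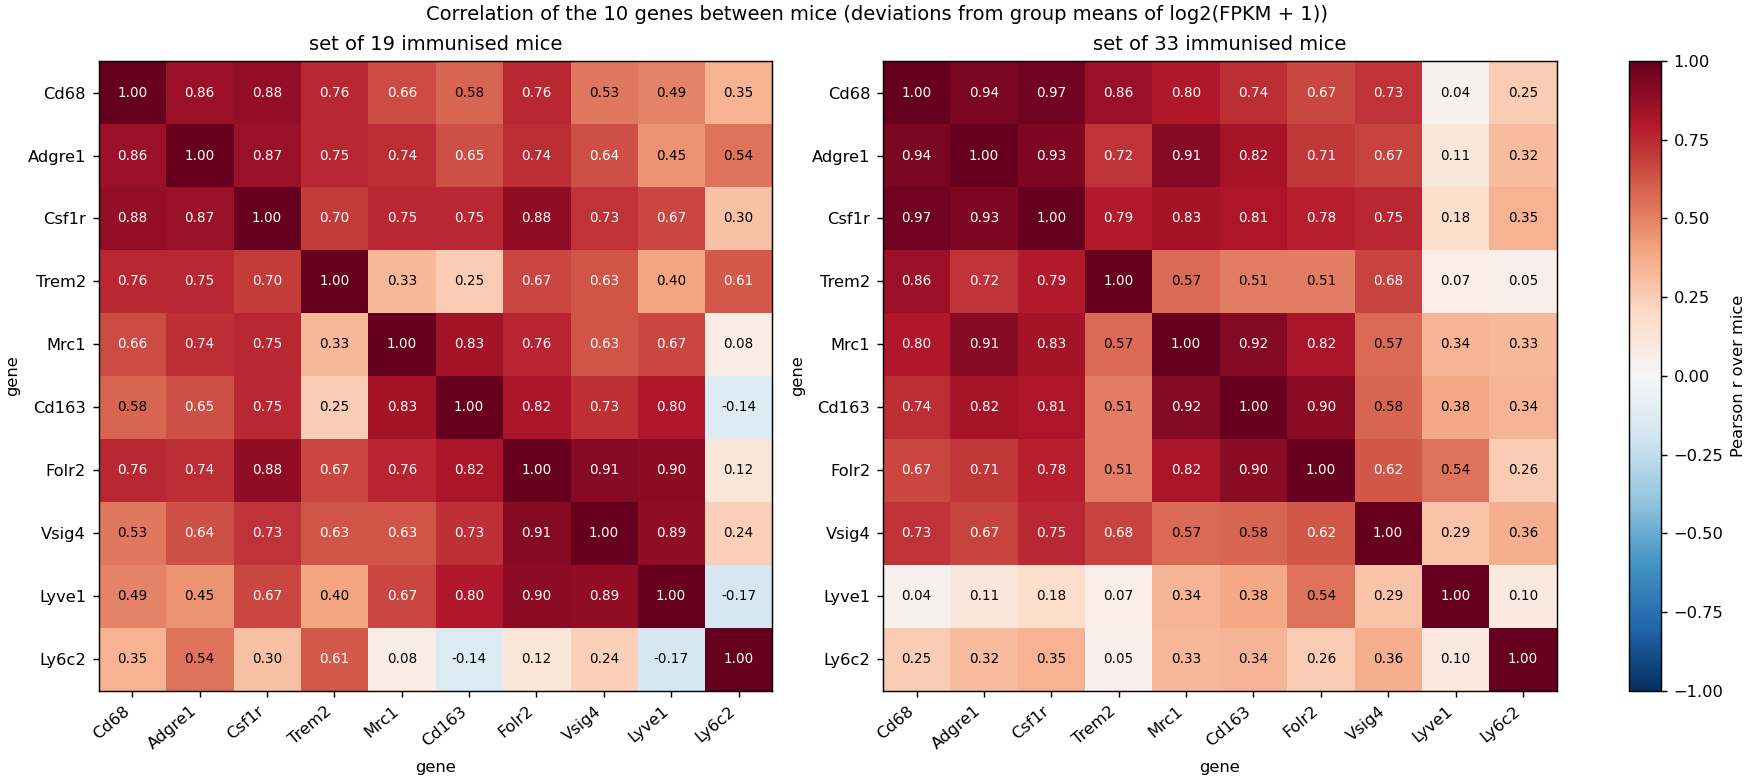
Pearson r between each pair of the 10 genes (rows and columns) over the mice of each set, on deviations from group means; red is positive and blue negative, and each cell prints its value. All pairs without Ly6c2 are positive in both panels, and Lyve1 has its weakest values in the right panel.

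Ly6c2 followed the other 9 genes less closely, though this varied with the mice included. In the set of 19 its r with them ran from -0.17 to 0.61, and 1 of 9 passed (Trem2, r = 0.614, p = 0.0306, adjusted p = 0.0438, rho = 0.635, p = 0.0192; r = 0.488, p = 0.197 without the 2 farthest mice). Without the 2 mice farthest from the median of the other gene, r in that set ran from 0.08 to 0.79. The highest of these was with Vsig4 (p = 0.00168, from r = 0.24 over all 19 mice). In the set of 33, r within single index runs ran from -0.28 (Trem2) to 0.85 (Mrc1). Over all of that set it ran from 0.05 to 0.36, and none passed. Its r with Trem2 was 0.05 there (p = 0.768, adjusted p = 0.784; rho = 0.0795, p = 0.661), while Trem2 had r = 0.858 with Cd68 (p = 1e-05, adjusted p = 6.92e-05; rho = 0.89, p = 1e-05). It followed 10 neutrophil markers instead, among them S100a8, S100a9, Ly6g and Csf3r. Against their mean r was 0.938 (p = 7e-05, adjusted p = 0.0014 over 160 relations of members with lists; rho = 0.932, p = 5e-05) in the smaller set and 0.90 (p = 1e-05, adjusted p = 0.0004; rho = 0.868, p = 1e-05) in the larger. Without the 2 mice farthest from the median of the list these were 0.916 and 0.842, and within index runs 0.881 or more. The 10 neutrophil markers summed to 53.0 to 81.5 FPKM without CIA and to 58.6 to 1551 FPKM in the isotype group and only Ly6g was at 0 in any library (1 of 56). With the neutrophil mean as a covariate, the Ly6c2 difference from no CIA was 0.29 ± 0.25 for isotype, in place of 1.83, and that of Cd68 0.19 ± 0.33, in place of 0.85. The other differences were also nearer to 0 or changed sign: Trem2 0.07 ± 0.31, Adgre1 0.24 ± 0.26, Csf1r 0.06 ± 0.23, Mrc1 0.21 ± 0.24, Lyve1 -0.30 ± 0.42 and Vsig4 -0.49 ± 0.43, with Folr2 at 0.06 ± 0.27 and Cd163 at 0.09 ± 0.32 in place of negative values. What part neutrophils have in these values was not tested.

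Markers of other cells and tissues varied with several members. The 2 sets were formed on the same 8 marker lists, the neutrophil list included. The split narrows the spread of the lists within a set, so which relations pass in a set depends in part on it. Against 8 osteoclast markers (among them Acp5, Ctsk and Dcstamp, genes of the bone-resorbing cells that also derive from monocytes), Trem2 had r = 0.746 (p = 2e-05, adjusted p = 0.000457; rho = 0.694, p = 4e-05) and Cd68 r = 0.745 (p = 2e-05, adjusted p = 0.000457; rho = 0.71, p = 2e-05) in the set of 33. In the set of 19 these were 0.575 (p = 0.0427, adjusted p = 0.142; rho = 0.575, p = 0.0358) and 0.328 (p = 0.296, adjusted p = 0.433; rho = 0.263, p = 0.34), or 0.783 and 0.609 without the 2 farthest mice. Within the index runs of the larger set r ran from 0.005 to 0.958 for Trem2 and from 0.42 to 0.999 for Cd68. Csf1r (r = 0.68, adjusted p = 0.00224) and Adgre1 (r = 0.573, adjusted p = 0.0127) also passed against the osteoclast markers in the larger set. In the smaller set the member that passed against osteoclast markers, and against bone and cartilage markers, was Ly6c2 (r = 0.77, p = 0.00069, adjusted p = 0.0092, rho = 0.768, p = 0.00126, and r = 0.76, p = 0.00199, adjusted p = 0.0212, rho = 0.753, p = 0.00252). The osteoclast list summed to 103.3 to 148.2 FPKM without CIA and 91.4 to 1259 FPKM in the isotype group, with Calcr under the filter. Against blood endothelial markers, Cd68 (r = 0.555, adjusted p = 0.0259) and Csf1r (r = 0.509, adjusted p = 0.0475) passed in the larger set. Their r was 0.37 and 0.28 without the 2 farthest mice, and no member passed in the smaller set. Against 8 dendritic and Langerhans cell markers, 6 members passed in the larger set, among them Folr2 (r = 0.786, p = 1e-05, adjusted p = 0.0004; rho = 0.637, p = 0.00021; r = 0.60 without the 2 farthest mice), and none in the smaller. Against 8 bone and cartilage markers, 6 members had a negative r that passed in the larger set, from -0.51 for Cd68 to -0.77 for Cd163. Without anti-TNF replicate 4 and anti-IL-6 replicate 13 these 6 ran from -0.08 to -0.26, so the relation rests on those mice. Lyve1 did not pass against lymphatic endothelial markers in either set (r = -0.12, p = 0.837, adjusted p = 0.875, rho = 0.198, p = 0.486 in the smaller; r = 0.33, p = 0.0644, adjusted p = 0.184, rho = 0.329, p = 0.0729 in the larger), but in the smaller set r was 0.608 without the 2 farthest mice, so its sign rests on them. The part of other cells in these values was not tested.

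**Figure D5:**
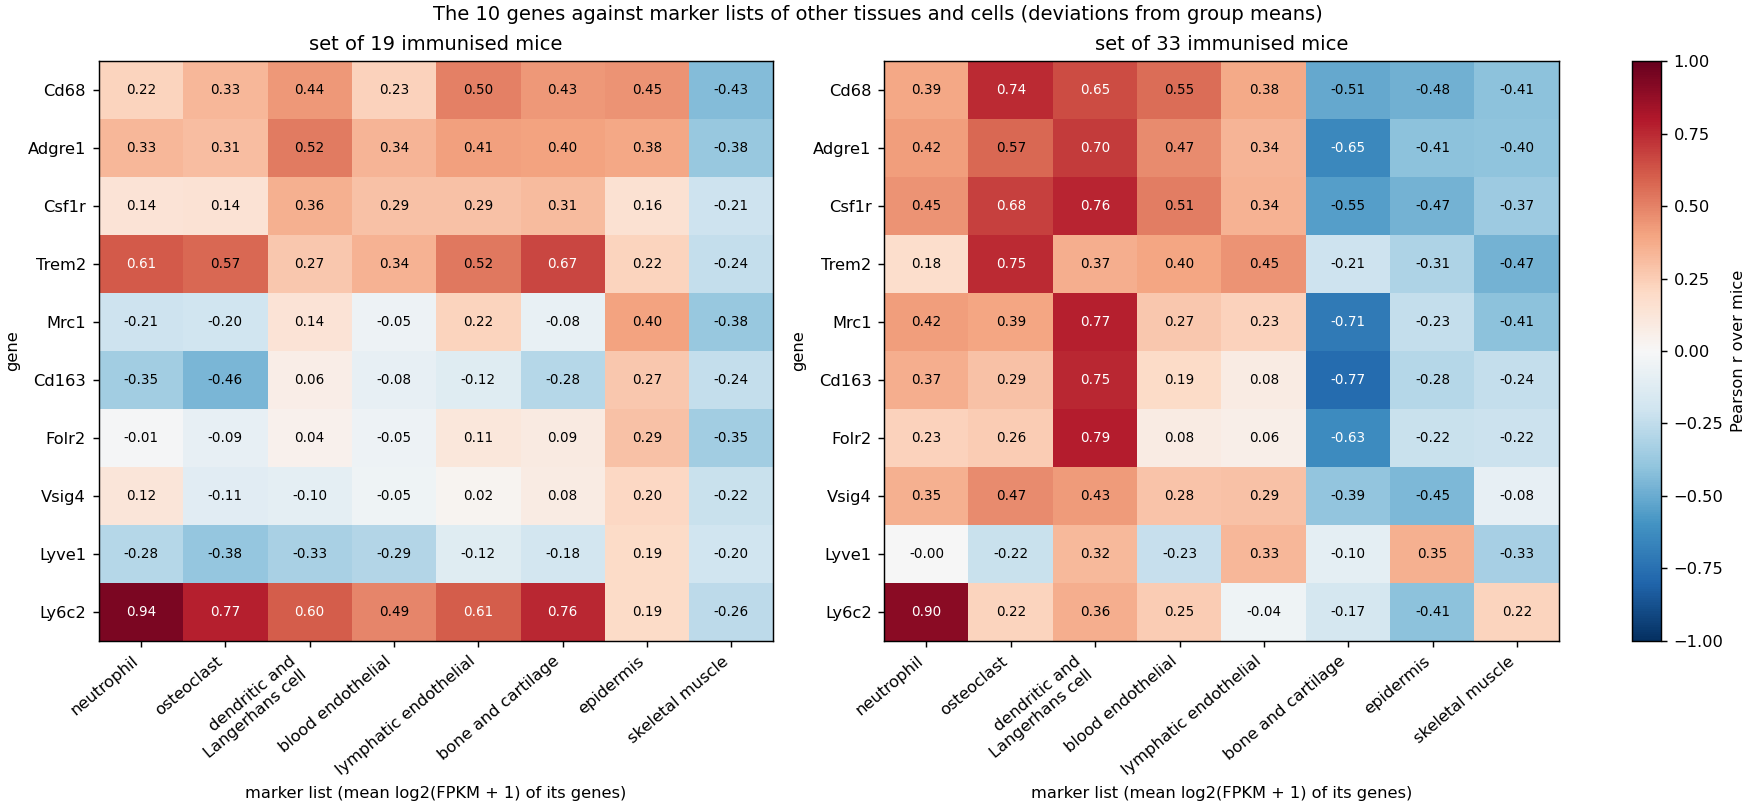
Pearson r of each of the 10 genes (rows) with the mean of each of 8 marker lists (columns) over the mice of each set, on deviations from group means. The highest values in both panels are those of Ly6c2 with the neutrophil list, 0.94 and 0.90.

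The genes whose pattern was most like each member over all features and 56 libraries are given with their r in the sets of 19 and 33, as a description. For Cd68 they were Sirpa (0.945 and 0.967), Spi1 (0.84 and 0.972) and Cyth4 (0.805 and 0.971). For Adgre1 they were Clec4a3, Ctss (the lysosomal protease cathepsin S) and Nckap1l, and for Csf1r P2ry6, Pld4 and Fcgr3, an Fc receptor for IgG, all between 0.861 and 0.966. For Mrc1 they were Ms4a4d, Cd300ld4 and the chemokine gene Ccl6. Folr2 had Cd163, Fcna and Cd209d, and Cd163 had Folr2, Cd209d and Ms4a8a, so that each of those 2 members was the other's nearest gene. Vsig4 had Fcna (0.905 and 0.678), Folr2 (0.907 and 0.621) and F13a1 (0.954 and 0.811). Lyve1 had Ildr2 (0.90 and 0.56), Sbk3 (0.855 and 0.21) and Cytl1 (0.686 and 0.434), none of them in the lists used here. Trem2 had Ftl1, which encodes ferritin light chain, Npc2, a lysosomal cholesterol carrier, and Fxyd5. Ly6c2 had Ifitm6 (0.918 and 0.892), the neutrophil collagenase gene Mmp8 (0.902 and 0.925) and I830127L07Rik (0.948 and 0.88), and its best-ranked fellow member, Adgre1, had rank 881; Mmp8 is 1 of the 10 neutrophil markers.

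The wider lists of the same biology had few calls. Of 24 other genes of recruited monocytes and inflammatory macrophages, 22 had positive differences for isotype minus no CIA (median 0.85), and none passed there. For the mean of the 4 groups 1 passed, Plac8, a gene of monocytes and neutrophils, at 2.11 ± 0.47 (adjusted p = 0.0128, limma). Plac8 also passed at 2.33 ± 0.52 for anti-TNF (adjusted p = 0.0148) and 2.09 ± 0.52 for anti-IL-6 (adjusted p = 0.0418). Il1b, the gene of interleukin 1 beta, had 1.82 ± 0.98 for isotype (adjusted p = 0.326). Of 23 other resident-type genes, 17 had positive differences (median 0.30), and 1 passed for the mean of the 4 groups: Ccl8, a chemokine gene of resident macrophages, at 1.72 ± 0.42 (adjusted p = 0.0305, limma), and at 1.92 ± 0.46 for anti-IL-6 (adjusted p = 0.0359). The second of the 2 largest in that list was Cx3cr1, the fractalkine receptor, at 0.96 ± 0.41 (adjusted p = 0.271).

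In the pathway of CSF1 and myeloid lineage factors, 11 of 13 genes were tested and none passed in any of these comparisons. For isotype minus no CIA 7 of 11 were positive (median 0.37), with Spi1 at 1.016 ± 0.38 (adjusted p = 0.259, limma) and Csf2rb, the shared beta chain of cytokine receptors, at 0.92 ± 0.39 (adjusted p = 0.268). Of 11 genes around Trem2 and its adaptor, 10 were positive (median 0.46), with Tyrobp, the adaptor itself, at 1.13 ± 0.47 (adjusted p = 0.268, limma) and Itgax at 0.86 ± 0.34 (adjusted p = 0.266). Over all 14700 features the median of the same comparison was 0.03.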

How the data were processed

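RNA was extracted from front paws with a column kit, and poly(A) libraries were made with a stranded kit and sequenced from both ends on an Illumina NovaSeq, per the labels' protocols. The authors deposited 1 table of FPKM values for 56 libraries, with no counts; its unit was read from the values, 76.9% to 84.4% of low values per library being whole multiples (tolerance 0.05) of what 1 fragment is worth. The submitters' processing notes name DESeq2 with no version; aligner, build and annotation: not given in the sources used here. Of 53431 features, 52244 carry Ensembl identifiers and 52207 of these were given a symbol; 51027 match GENCODE M21 with their version. No 2 libraries held identical values (highest r 0.9973).

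log2(FPKM + 1) of the 14700 features with a group mean of at least 1 FPKM in any group was fitted with limma 3.58.1 in R 4.3.3 (a mean per group, trended and robust prior, 51 residual degrees of freedom), with Benjamini-Hochberg adjustment over all of them; differences on this scale understate changes of low genes. Each library is 1 mouse, so errors are between mice. The named neighbours were the 3 features with the highest r of deviations from group means over 56 libraries; of other lists, the genes called and the 2 with the largest difference, isotype minus no CIA, were named. The 2 sets of libraries, the relations with marker lists, the neutrophil covariate and the fits without 2 high libraries were chosen after seeing the data. Correlations were computed in Python 3.11.15 with numpy. The fit and the permutation test were tested on simulated data. The members and lists were chosen with earlier results of these data known. Symbols, promoters and coding bases come from RefSeq and GENCODE tables of GRCm38.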

Additional observations from a re-analysis of the deposited data

Results flagged for a closer look

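Trem2 in no CIA replicate 2, at 15.9 FPKM, stood far from the other 3 mice of its group, which lay between 10.9 and 11.7 FPKM. Chance gives such a gap in about 1 in 20 groups for a single gene. All 10 genes were looked at in this group, so a gap in 1 of them can readily arise by chance. Groups of over 10 mice were not looked at.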

How the results depend on the processing

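In each of the 11 comparisons 0 of the 10 members were called, and the count moved only in the comparisons with no CIA: to 5 for isotype, 5 for anti-TNF, 3 for anti-IL-6 and 5 for the mean of the 4 groups with index run as a covariate, and to 1 (Ly6c2) for anti-TNF, anti-IL-6 and the mean with a pseudocount of 0.1. Leaving out 1 library at a time gave 0 to 1 for anti-TNF (1 without anti-TNF replicate 7 or 13) and 0 to 1 for the mean of the 4 groups (1 without anti-TNF replicate 7 or 13 or isotype replicate 5), in each case Ly6c2. A pseudocount of 10, no filter, the compared groups alone (not run for the mean of the 4 groups, which uses all), median-of-ratios scaling, the skeletal muscle and epidermis covariates, the neutrophil covariate and leaving out both high libraries gave 0 in all comparisons they were run for. Of 50 differences from no CIA, 11 changed sign in at least 1 of the alternatives, all of Folr2, Cd163 or Lyve1 and none past the test on either side. Of 60 differences between antibody groups, 37 changed sign in at least 1 alternative, in all 10 genes and none past the test. Over all features, isotype minus no CIA had 23 calls, against 66 and 5 with pseudocounts of 0.1 and 10, 67 with median-of-ratios scaling, 35 with no filter or the compared groups alone, 72 with the muscle and epidermis covariates, 62 without the 2 high libraries, 2744 with index run and 0 with the neutrophil covariate. Anti-IL-6 minus isotype had 140, against 20 with index run and 371 with the muscle and epidermis covariates.

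The pooled count of correlated pairs over 52 mice was 28 of 45 (23 positive, 5 negative), and 26 to 31 with rho, other pseudocounts, scaling, without the 2 farthest mice and without the 2 high libraries. It was 0, 7, 18 and 12 within index runs 2, 3, 4 and 5, which hold 11 to 13 mice each, and 34 and 29, all positive, within the sets of 19 and 33; none of the pairs had a negative r that passed there. The level of resident-type against general genes kept its sign in every group under both other pseudocounts, median-of-ratios scaling and leaving out each library. That sign describes each group alone and is no check on the difference of this level between no CIA and immunised mice. No paired analysis was possible because the replicate numbers were given in accession order and tie no mice of different groups together. The 4 no CIA mice, all in 1 index run, limit every comparison with the disease.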
